A study of Mus musculus with 2 samples.

Results

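The cells described here are 568 bone marrow progenitors that carried little CD150, much CD48 and at least 2 Flt3 transcripts, with no Dntt transcript. They were selected on measured values. A cell was taken when its CD150 tag count lay under the 75th percentile of its library, its CD48 tag count lay above the 25th percentile, and it held 2 or more unique molecular identifiers (UMIs, counted transcripts) of Flt3 and 0 of Dntt. The cells were drawn from 3986 kept cells with tag values, so that 14.25% were members (exact Clopper-Pearson 95% interval 13.18 to 15.37). In the field's scheme of surface markers this is the position of the MPP4, a multipotent progenitor, and they are called MPP4-like cells below. The scheme reads Flt3 on the cell surface, while here no Flt3 tag was measured and its transcript was used.

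MPP4 cells, also called lymphoid-primed multipotent progenitors, stand between the stem cell and the lymphoid and myeloid lineages. Flt3 is a receptor tyrosine kinase whose ligand supports early lymphoid and dendritic cell progenitors. It appears on the cell as the self-renewing programme recedes, while the SLAM family receptor CD150 is lost and its relative CD48 is gained. Dntt encodes terminal transferase, which adds bases at the joints of rearranging antigen receptor genes and marks progenitors further on the lymphoid path. Satb1 encodes a chromatin organizer known for early lymphoid priming.

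LSK cells (lineage-negative, Sca-1-positive, c-Kit-positive) were sorted from bone marrow of untreated C57BL/6JRj mice, from a young group of 3 to 5 months and an old group of 22 to 28 months, with several mice of an age combined. CITE-Seq was run on them, a droplet method that counts the transcripts of a cell together with DNA tags on antibodies bound to its surface, here against CD150, CD48 and CLCA3A1. Each age gave 1 library, and barcodes end in the suffix 1 or 2. Which suffix is which age is not given in the sources used here. Ages are therefore left uncompared, the matrix counts as 1 pooled sample, and no result has a replicate or a test across samples.

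The matrix held 31053 genes in 4688 cells, 1696 with suffix 1 and 2992 with suffix 2, and no barcode sequence occurred under both. Kept cells had under 10% mitochondrial UMIs and more than 1500 detected genes, which left 4068, with a median of 15023.5 UMIs in suffix 1 and 14766.5 in suffix 2. Doublet calling with scrublet marked 0.328% of the kept cells of suffix 1, a share too low to show that the caller worked there, and 1.30% of suffix 2, including 1 and 2 of the members. Levels are given in CPM, counts per 1000000 UMIs of the same cells, and intervals are exact 95% intervals that cover counting error only.

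The tag limits differed widely between the libraries. The 75th percentile of CD150 was 40 tags in suffix 1 and 407 in suffix 2, and the 25th percentile of CD48 was 224 and 42 tags. In suffix 1 the members nearest the CD150 limit had 39, 39 and 36 tags, against 40, 40 and 41 in the nearest cells that failed it alone. Their lowest CD48 counts there were 225, 227 and 230, against 223, 222 and 221 outside. In suffix 2 the highest CD150 counts of members were 311, 71 and 59, against 411, 601 and 622 outside, and the lowest CD48 counts were 43, 46 and 47, against 40, 38 and 37 outside. Members thus came up to both limits in suffix 1, and in suffix 2 to the CD48 limit but, except for 1 cell, not to the CD150 limit. The median member carried 5 CD150 tags in either library and 529.5 and 425.5 CD48 tags in suffix 1 and 2.

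**Figure D1:**
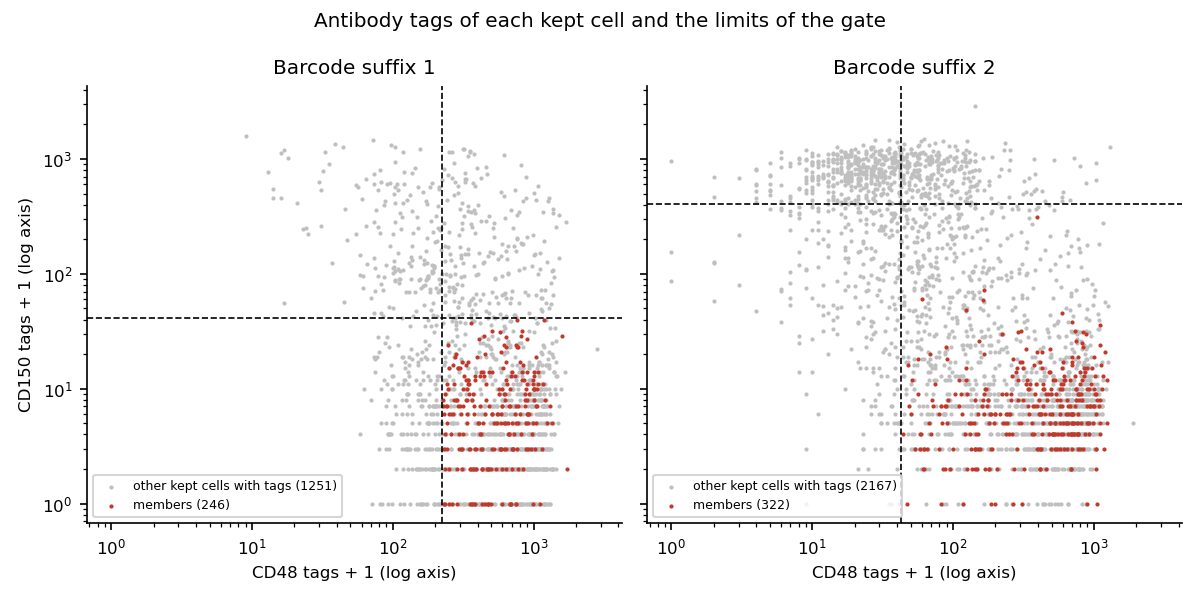
Tags of CD48 (horizontal) and CD150 (vertical) on each kept cell, each with 1 added, on log axes, with one panel for each barcode suffix. Red points are the 246 and 322 members, grey points the other cells, and dashed lines the limits of 224 and 42 CD48 tags and of 40 and 407 CD150 tags. The members fill the lower right field in part, since the Flt3 and Dntt conditions are not seen on these axes.

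Of the cells inside the tag gate, 703 of 912 (77.08%) in suffix 1 and 765 of 1615 (47.37%) in suffix 2 held 2 or more Flt3 UMIs. Outside it the share was 42.16% (86 of 204 cells) and 3.6% (9 of 250) in the CD150-low CD48-low gate. In the CD150-high CD48-low gate, the position of stem cells, it was 3.49% (6 of 172) in suffix 1, and 0 of 383 cells in suffix 2, which allows a share of up to 0.9585% by the exact interval. Most of the gated Flt3-positive cells also carried Dntt, and the absence of a Dntt UMI left 246 and 322 cells, 34.99% and 42.09%. Dntt was seen in 1.74% and 2.09% of the CD150-high CD48-low gate. Of the 568 members, 204 (35.92%) had the minimum of 2 Flt3 UMIs, 133 had 3, 91 had 4, 47 had 5 and 93 (16.37%) had 6 or more.

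Depth differed between the groups, and conditions on single UMIs depend on it. The median member held 14851.5 UMIs in suffix 1 and 17117 in suffix 2. Medians were lower in the CD150-low CD48-low gate, at 11943 and 11203, and higher in the gated cells with both Flt3 and Dntt, at 19887 and 22211. Shares of cells are therefore also given after every cell was thinned to 9000 UMIs, which left out 15 members, 82 cells of the CD150-low CD48-low gate and 36 of the CD150-high CD48-low gate.

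The label was first checked against its markers Flt3, Cd48 and Satb1. Flt3 was fixed by the rule, at 231 CPM in suffix 1 and 177 in suffix 2, and Cd48 mRNA (70.6 and 143 CPM) goes with the tag. Satb1 was used by neither. It was found in 62.2% and 60.87% of members, and in 12.8% and 2.87% of the CD150-high CD48-low gate, whose median depths were 12917 and 13477 UMIs. After thinning the shares were 46.81% (40.29 to 53.41) and 42.45% (36.96 to 48.09) of members, against 7.05% and 1.93%. Groups nearer to the members lay closer. The shares were 30.59% and 7.92% in the CD150-low CD48-low gate and 22.37% and 14.07% in gated cells with 0 Flt3 UMIs. In gated cells with both Flt3 and Dntt they were 79.87% and 74.77%, above the members. Satb1 was thus not particular to members. Slamf1, which encodes CD150, was at 0.706 and 0.630 CPM in members (3 and 4 UMIs) and at 16.9 and 64.2 CPM in the CD150-high CD48-low gate. Cd34, a surface sialomucin of early progenitors, was at 573 and 530 CPM in members and at 202 and 40.3 CPM in that gate. Of the markers of the label, only Satb1 was thus a check from outside the rule.

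Several defining transcripts of committed lymphoid cells were at or near 0 in the members, while Ighm (44.5 and 37.8 CPM) and, in suffix 2, Igkc (65.2 CPM, against 2.12 CPM in suffix 1) of the mature B and plasma cell list and Nkg7 of the T and NK cell list (116 and 219 CPM) were not. Rag1, which cuts antigen receptor genes, the B cell factor Pax5, and the receptor chains Cd79a and Cd3e gave 0 UMIs in either library, where 3 UMIs would be 0.706 and 0.473 CPM. Il7r, the receptor of interleukin 7, had 1 UMI in suffix 1 and 0 in suffix 2, against 11.2 and 10.2 CPM in the gated cells with Flt3 and Dntt. The rule itself left out every cell with Dntt, which bears on these low levels. Il7r was as rare elsewhere. After thinning it was found in 0 of 372 cells of the CD150-low CD48-low gate and 0 of 519 of the CD150-high CD48-low gate. It was found in 1 of 545 gated cells with neither Flt3 nor Dntt. The B cell factor Ebf1 had 3 and 5 UMIs, and the chemokine receptor Ccr9 had 4 and 4. Gata1, the erythroid and megakaryocyte factor, had 0 and 4.

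Against the CD150-low CD48-low gate, the members had more transcripts of many cell division genes, of Cd48 and of the granule genes Mpo and Ctsg, and fewer of 6 genes, among them Tgm2 and Mllt3. Genes were compared by the log2 ratio of CPM with 10 added, within each suffix, for genes that 10% or more of either group's cells held, and counted when the ratio was 2-fold or more in both suffixes. Of 9595 genes, 77 (0.803%) were higher in members and 6 (0.0625%) were lower. Within suffix 1 alone 79 were higher and 8 lower, and within suffix 2 alone 309 and 188. The gate was not alike in both libraries. Its median CD150 tags were 4.5 in suffix 1 and 84.5 in suffix 2, against 5 in members of either. Its median CD48 tags were 152 and 23. The part of this in the larger differences of suffix 2 was not tested. With the tag limits placed at the medians, 8 genes were higher and 3 lower. The mean log2 ratio over both suffixes was largest for Mpo, which encodes the peroxidase of myeloid granules, at 3.90. Mpo had 327 UMIs in members of suffix 1 against 20 in the gate, a CPM ratio of 9.73 (6.20 to 16.1), and 3267 against 4 in suffix 2, a ratio of 371 (145 to 1361). Ctsg, the granule protease cathepsin G, followed at 3.05 (1.06 in suffix 1 and 5.03 in suffix 2), and Cd48 at 2.89 (2.20 and 3.58). The size of the ratio for Mpo and Ctsg thus differed strongly between the libraries. They were the 2 of 12 tested genes of the myeloid list past the fold, and the list median was 0.479 (0.211 in suffix 1 and 0.935 in suffix 2). The summed list was at 1707.7 CPM in members and 1543.2 CPM in the gate in suffix 1, and at 3316.3 and 1593.2 CPM in suffix 2. In suffix 1 Ctsg was found in 11 members, and 98.44% of its UMIs were in 10 of them.

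The next genes belonged to the division cycle. Pclaf, a partner of the replication clamp, had a mean log2 ratio of 2.51. Mki67, the proliferation antigen Ki-67, was at 2.49, with CPM ratios of 5.95 (4.54 to 7.93) and 10.5 (7.94 to 14.2). Top2a, which untangles replicated DNA, was at 2.43, the linker histone gene Hist1h1b at 2.33, the kinetochore gene Spc24 at 2.18 and the spindle protein gene Birc5 at 2.16. The gene BC035044 was at 2.26, and Nkg7, a granule membrane protein gene known from cytotoxic lymphocytes, was at 1.93 on the same scale. Of the list of 20 S phase genes 5 were among the 77, and of the list of 20 G2 and mitosis genes 11. The median log2 ratio was 1.27 over the S phase list and 1.44 over the G2 and mitosis list, beside 0.0279 over all tested genes.

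**Figure D2:**
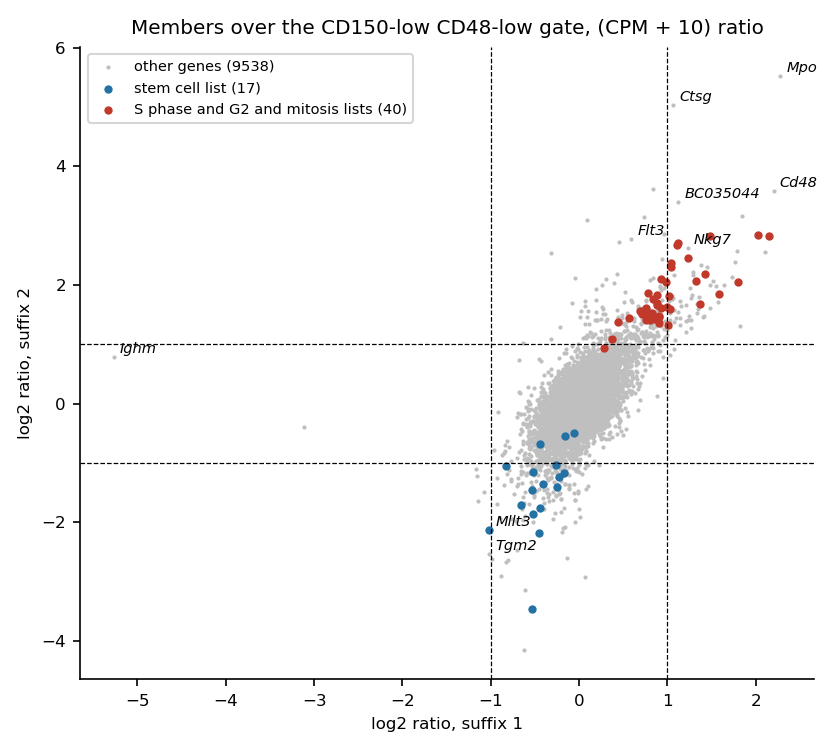
Log2 ratio of members over the CD150-low CD48-low gate, of CPM with 10 added, in suffix 1 (horizontal) and suffix 2 (vertical) for each of the 9595 genes, with dashed lines at a 2-fold difference. Red points are the genes of both cell cycle lists, blue points the stem cell list and grey points other genes. Mpo (2.28 and 5.53) and Ctsg (1.06 and 5.03) lie far above the others on the vertical axis, and Ighm lies far to the left in suffix 1 (log2 ratio -5.27), where a cell with 65.06% immunoglobulin UMIs was in the CD48-low gate.

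The levels were also taken with the cells highest in division genes left out. Cells above the 75th percentile of the G2 and mitosis list in their library made up 22.36% (17.31 to 28.09) of the members of suffix 1 and 39.44% (34.07 to 45.01) of suffix 2. They made up 6.86% and 4.40% of the CD150-low CD48-low gate. These cells were picked on a list of which 11 genes are themselves among the 77, so that a lower ratio of these was fixed by the choice. Other division genes of the 77 go with that list, so the smaller count was in large part fixed too. With these cells left out on both sides, 5 genes stayed 2-fold higher in both suffixes. Of them 4 were among the 77 (Cd48, BC035044, Nkg7 and Mpo), and Ung, which removes uracil from DNA, was added. Ctsg was no longer past the fold, with a log2 ratio of 0.51 in suffix 1. The median over the 77 genes was then 0.513, from 1.53 with all cells, and the log2 ratio of Birc5, a gene of the G2 and mitosis list, was -0.035. In the median cell, with all cells kept, the S phase list was at 727.7 CPM in members and 476 CPM in the gate in suffix 1, and at 1180.8 and 343 CPM in suffix 2, while the G2 and mitosis list was at 98.9 and 86.2 CPM in suffix 1 and at 180.2 (153.2 to 222.8) and 0 (0 to 66.0) CPM in suffix 2. With every cell thinned to 9000 UMIs and the members chosen anew on the thinned counts (399 against 414 cells of the gate), 32 genes were higher and 5 lower.

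Among the 6 lower genes, Tgm2, a transglutaminase, had the lowest mean log2 ratio, -1.78. It was at 8.01 and 13.4 CPM in members and at 26.5 and 125 CPM in the CD150-low CD48-low gate. Mllt3, a chromatin reader known for stem cell maintenance, was at -1.57, with CPM ratios of 0.441 (0.361 to 0.538) and 0.176 (0.146 to 0.211). Upp1, a uridine phosphorylase, was at -1.39. Iigp1, an interferon-inducible GTPase, was at -1.28, and the gene models Gm4951 and F830016B08Rik were at -1.19 and -1.14. With the cells high in division genes left out, these gene models were no longer past the fold, at -0.970 and -0.839 in suffix 2. Mllt3 was the only 1 of 17 tested stem cell genes past the fold in both suffixes, while the median of that list was -0.880, more negative in suffix 2 (-1.36) than in suffix 1 (-0.443). The erythroid and megakaryocyte list had a median of -0.506 with 0 of 11 genes past the fold, and the early lymphoid list a median of 0.200 with 0 of 11. For the count over all genes the pseudocount mattered, since with 1 CPM added 215 genes were higher and 55 lower, and the share of higher among counted genes went from 92.77% to 79.63%. With both suffixes summed it was 184 and 77.

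The CD150-low CD48-low gate was also split by Flt3. It held 72 and 9 cells with 2 or more Flt3 UMIs and no Dntt, so suffix 2 rests on few cells. The G2 and mitosis list was at 362.7 and 62.0 CPM in these cells, below the 496.5 and 214.8 CPM of the gate's cells with 0 Flt3 UMIs, and at 1409.6 and 1517.9 CPM in the members. The stem cell list was at 3614.0 and 4570.9 CPM in the Flt3-positive cells of the CD48-low gate and at 2621.2 and 2366.0 CPM in members. Mpo was at 8.64 and 8.86 CPM (8 and 1 UMIs) in the former and at 77.0 and 514.8 CPM in members. Satb1 in suffix 1 was at 68.0 CPM (52.3 to 87.0) in the Flt3-positive CD48-low cells and 81.9 (73.6 to 91.0) in members, and at 35.1 CPM in the Flt3-negative CD48-low cells.

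Within the same tag gate, cells with 0 Flt3 UMIs and no Dntt differed from members in few genes. There were 86 and 510 of them, and their median depths were 13861 and 14045 UMIs. Their tags were not matched to those of members within the gate. The median CD48 tags were 440 and 135, against 529.5 and 425.5 in members. The median CD150 tags were 13 and 28, against 5 and 5. The part of tag level in the differences below was not tested. Of 9612 genes, 4 (0.0416%) were 2-fold higher in members in both suffixes and 4 (0.0416%) were lower. The first of the higher genes is Flt3, by the rule. The others are Wfdc17, a secreted protein with a four-disulphide core, Satb1, and Ccl3, an inflammatory chemokine. Wfdc17 was at 195 and 126 CPM in members and at 58.6 and 27.2 CPM in the Flt3-negative cells, ratios of 3.33 (2.63 to 4.26) and 4.65 (4.00 to 5.42). Satb1 was at 81.9 and 73.4 CPM against 33.2 and 19.8 CPM, ratios of 2.47 (1.80 to 3.48) and 3.72 (3.1 to 4.48). Ccl3 was at 34.8 and 36.6 CPM against 10.8 and 10.6 CPM.

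The lower genes were Igkc, Ighm, Apoe and Cpa3. Apoe, the lipid carrier apolipoprotein E, was at 56.7 and 80.8 CPM in members and at 295 and 438 CPM in Flt3-negative cells, ratios of 0.192 (0.163 to 0.226) and 0.185 (0.168 to 0.203). Cpa3, a protease gene of mast cells and their progenitors, had 8 and 70 UMIs in members against 26 and 277. With the cells high in division genes left out, Cpa3 was just short of the fold, with log2 ratios of -0.922 and -0.968. The immunoglobulin genes Igkc and Ighm rested on few cells, since 7 of the Flt3-negative cells and 0 of the members had over 10% immunoglobulin UMIs. Without the 12 such cells of the data only Apoe and Cpa3 were lower, and the log2 ratio of Ighm turned to 1.21. Igkc was widespread in suffix 2, as 67.7% of members of suffix 2 and 59.8% of the CD150-high CD48-low gate carried it, against 3.66% and 0.58% in suffix 1. After thinning the shares in suffix 2 were 46.5% and 44.6%.

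By list, 1 of 11 tested early lymphoid genes (Satb1) was higher than in Flt3-negative cells, with a list median of 0.170 beside 0.0103 over all genes. The stem cell list had a median of -0.429 with 0 of 18 genes past the fold, and the erythroid and megakaryocyte list -0.479 with 0 of 10. The G2 and mitosis list was at 0.459 and the S phase list at 0.247, with 0 of 20 genes past the fold in each. The myeloid list was at -0.0426, and here the libraries differed in sign. Mpo was at 469.8 CPM in the Flt3-negative cells of suffix 1 and 77.0 in its members, but at 161 against 515 CPM in suffix 2. The shares of cells with Mpo did not differ in sign, as it was found after thinning in 18.42% (10.45 to 28.97) of the Flt3-negative cells of suffix 1 and 20.43% (15.46 to 26.15) of its members, and in 18.55% and 39.31% in suffix 2. The myeloid list of the median cell was at 1723.6 CPM in Flt3-negative cells and 1570.9 CPM in members in suffix 1, and at 1752.9 and 1960.1 CPM in suffix 2. Elane, neutrophil elastase, had 4 UMIs in the members of suffix 1 (0.942 CPM) and 308 (48.5 CPM) in those of suffix 2.

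Levels were also followed along the number of Flt3 UMIs, as values only. Satb1 went from 33.2 CPM at 0 UMIs to 26.6, 64.9, 72.0, 87.4 and 106 CPM at 1, 2, 3, 4 to 5 and 6 or more in suffix 1, and from 19.8 to 33.6, 56.6, 72.1, 73.4 and 106 CPM in suffix 2. Wfdc17 went from 58.6 to 315 CPM in suffix 1 and from 27.2 to 176 CPM in suffix 2 between the same ends. Ccl3 had no such order. It was at 10.8, 42.3 and 17.8 CPM at 0, 1 and 2 Flt3 UMIs in suffix 1, so that the cells with 1 UMI, which are no members, were above the members' 34.8 CPM, and at 10.6, 10.0 and 33.6 CPM in suffix 2. Apoe went the other way from Satb1, from 295 to 37.0 CPM and from 438 to 33.9 CPM. Between cells with 1 and with 2 Flt3 UMIs, on either side of the limit, Apoe was at 135 and 84.9 CPM in suffix 1 and at 257 and 126 CPM in suffix 2.

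Other levels were ordered by Flt3 in suffix 2 more than in suffix 1. The erythroid and megakaryocyte list went from 1411.1 CPM at 0 Flt3 UMIs to 529.9 CPM at 6 or more in suffix 2, and was at 1183.3 and 980.9 CPM in suffix 1. The stem cell list was at 3061.0 and 1926.3 CPM in suffix 2 and at 2653.6 and 2569.1 CPM in suffix 1. Hlf, a stem cell transcription factor, was at 252 and 124 CPM in suffix 2, and at 435 and 499 CPM in suffix 1. The S phase list stood at 1609.1 and 3195.1 CPM in suffix 2 and at 1708.7 and 1765.3 CPM in suffix 1. Depth moved along: the median cell had 13861 UMIs at 0 Flt3 UMIs and 16192.5 at 6 or more in suffix 1, and 14045 and 26135 in suffix 2. Its part in these orders was not tested.

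**Figure D3:**
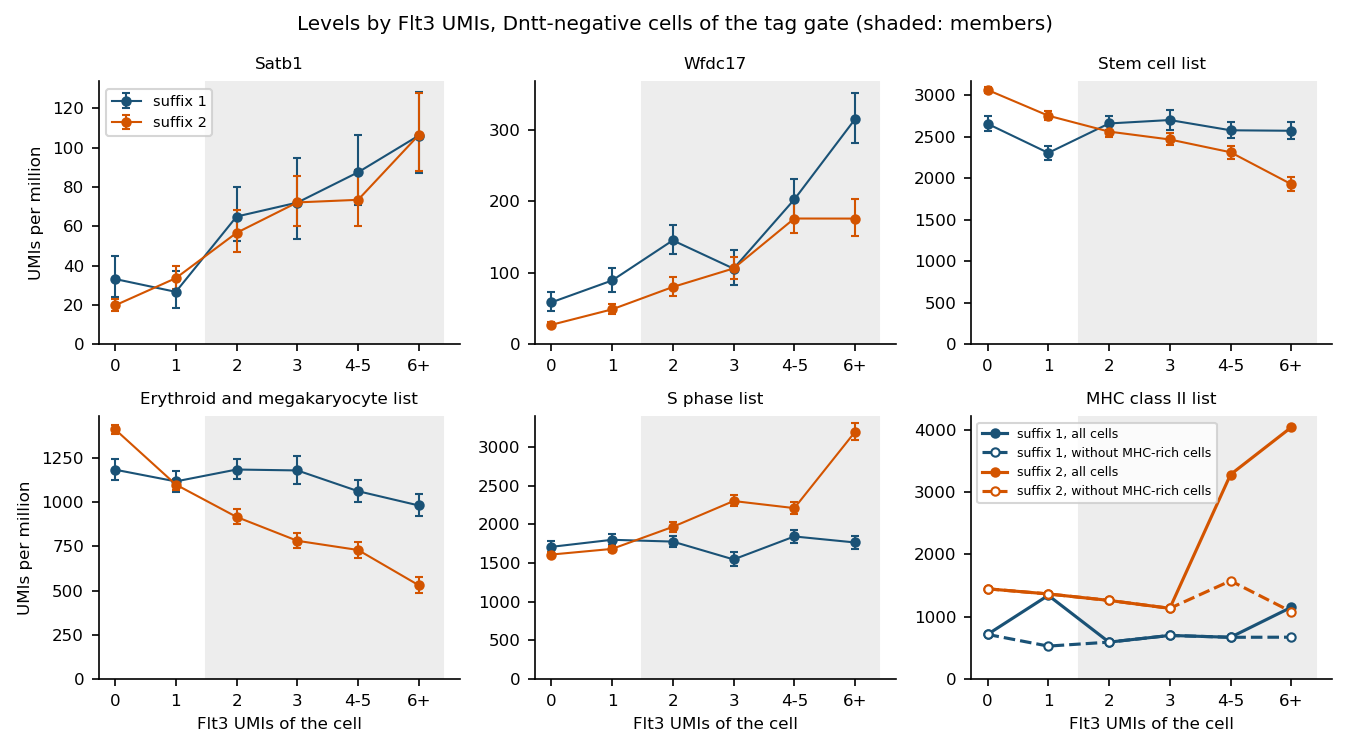
Summed level in CPM (vertical) of Satb1, Wfdc17 and 4 gene lists in Dntt-negative cells of the tag gate, by the Flt3 UMIs of the cell (horizontal), for suffix 1 (blue) and suffix 2 (orange), with bars for 95% counting intervals where drawn. Grey shading covers the members. Satb1 reaches 106 CPM in both libraries, the stem cell and erythroid lists are lower to the right in suffix 2, and the MHC class II list is at 1081.2 CPM at 6 or more Flt3 UMIs in suffix 2 once cells rich in these transcripts are left out.

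The gated Flt3-positive cells that did carry Dntt, 457 and 443 of them, were compared with the members after the data had been seen. Of 9745 genes, 5 (0.0513%) were 2-fold higher in members and 9 (0.0924%) were lower. Among the higher genes were Gng11, a G protein gamma subunit, Esam, an adhesion molecule of endothelium and stem cells, Slc18a2, a vesicle monoamine transporter, and the tetraspanin gene Cd63. Esam was at 32.0 and 33.7 CPM in members and at 7.54 and 8.92 CPM in the cells with Dntt, ratios of 4.24 (3.18 to 5.70) and 3.78 (2.95 to 4.87). Gng11 had a mean log2 ratio of 1.35, Slc18a2 of 1.13 and Cd63 of 1.06. Members therefore held more of these transcripts in both libraries. With the cells high in division genes left out, Slc18a2 and Cd63 were no longer past the fold, each with a log2 ratio of 0.81 in suffix 1.

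The 9 lower genes were led by Dntt, by the rule. Ighm, the mu heavy chain, was at 44.5 and 37.8 CPM in members and at 243 and 214 CPM in cells with Dntt. The C-type lectin receptor gene Clec12a had ratios of 0.175 (0.123 to 0.243) and 0.315 (0.254 to 0.387). Arpp21, a phosphoprotein gene also transcribed in early lymphocytes, had 10 and 11 UMIs in members against 245 and 224. Il12a, a subunit of interleukin 12, was at 55.1 and 30.9 CPM in members and at 137 and 99.7 CPM in cells with Dntt. Satb1 was again on the list, at 81.9 and 73.4 CPM in members against 195 and 199 CPM. The others, named because the count was short and chosen once their values were seen, were Cd69, Ncf1 and Bex6, with log2 ratios between -1.30 for Cd69 in suffix 1 and -1.01 for Bex6 in suffix 1.

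By list, the stem cell genes had a median log2 ratio of 0.558, with 2 of 15 genes, Esam among them, past the fold, and the erythroid and megakaryocyte list 0.510 with 0 of 10, beside 0.0169 over all genes. The early lymphoid list was at -0.331 with 1 of 12 genes (Satb1) lower, the G2 and mitosis list at -0.523 and the S phase list at -0.208. Cells above the 75th percentile of the G2 and mitosis list made up 39.17% and 52.14% of the cells with Dntt. With every cell thinned to 9000 UMIs and the rule applied anew to the thinned counts, which left 399 members and 577 cells with Dntt, 14 genes were higher and 10 lower, and the parts of depth and of membership in this were not tested.

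**Figure D4:**
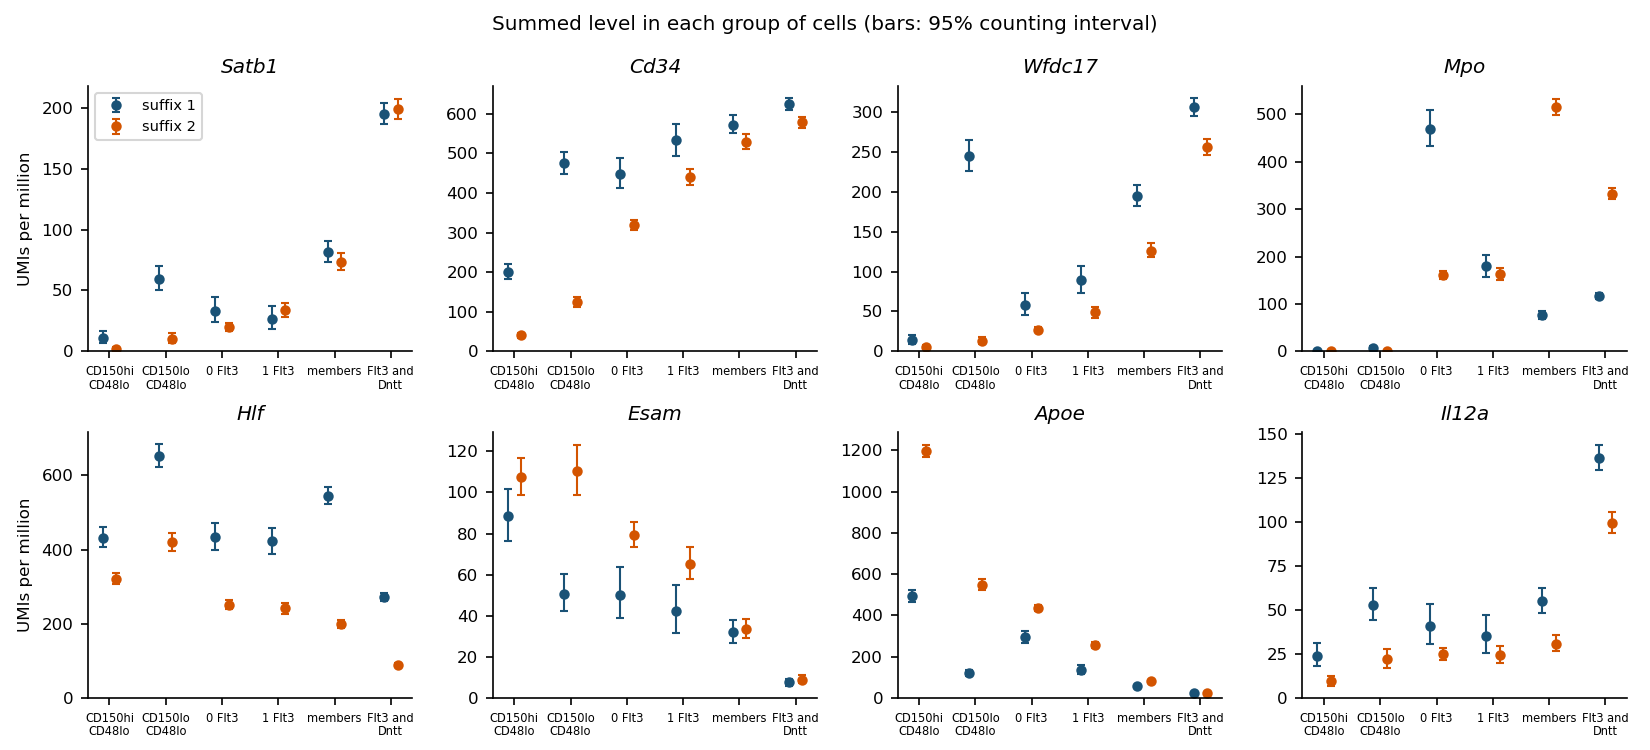
Summed level in CPM (vertical, from 0) of 8 genes in 6 groups of cells, for suffix 1 (blue) and suffix 2 (orange), with bars for 95% counting intervals. From the left, the groups are the CD150-high CD48-low gate, the CD150-low CD48-low gate, then cells of the members' tag gate with 0 and with 1 Flt3 UMI, the members, and cells with Flt3 and Dntt. Satb1 of members (81.9 and 73.4 CPM) lies between the Flt3-negative cells and those with Dntt (195 and 199 CPM), and in the members Hlf and Mpo differ more between the suffixes than Satb1 does.

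All other kept cells, 1278 and 2222 of them, include every group above, and against this mixture few genes stood out. Of 9647 genes, 0 (0%) were 2-fold higher in members in both suffixes and 4 (0.0415%) were lower, namely Igkc, Ighm, Dntt, by the rule, and Apoe. Within single suffixes 0 and 6 genes were higher and 6 and 61 lower. Apoe had ratios of 0.326 (0.285 to 0.371) and 0.177 (0.162 to 0.193). Without the 12 immunoglobulin-rich cells Dntt and Apoe were left. The stem cell list had a median of -0.457 (-0.130 in suffix 1 and -0.784 in suffix 2) and the S phase list of 0.244, which was -0.112 in suffix 1 and 0.559 in suffix 2, beside 0.0152 over all genes. These comparisons share the members, and the last of them contains the comparison cells of the others, so they are not separate evidence.

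Components of Flt3 signalling other than the receptor were counted in the same way. The list of 47 genes, adaptors, kinases, phosphatases and STAT factors, had 0 of 43 tested genes past the fold against the CD150-low CD48-low gate (median log2 ratio -0.00993) and 0 of 43 against the Flt3-negative cells (-0.0279), and 0 of 42 against the cells with Dntt (0.0557). Over all genes at most 0.803% were past the fold in a direction, so that these counts do not set the list apart. The adaptor gene Grb2 was at 128 and 130 CPM in members and at 148 and 136 CPM in Flt3-negative cells, and the ubiquitin ligase gene Cbl at 53.7 and 48.4 against 43.2 and 45.8 CPM. Socs2, a STAT5-induced inhibitor of cytokine signals, was low in members, at 4.71 and 2.05 CPM (20 and 13 UMIs), against 42.6 and 77.1 CPM in the CD150-high CD48-low gate. The same holds of the 14 listed regulators of the Flt3 gene, with 0 past the fold. Spi1, which encodes PU.1, was at 145 and 168 CPM in members, Myb at 303 and 339 CPM, Hoxa9 at 126 and 93.9 CPM, and Meis1 at 298 and 242 CPM.

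Receptors for cytokines were measured next. The list of 30 had a median log2 ratio of 0.0364 against the CD150-low CD48-low gate, with 0 of 23 tested genes past the fold. Kit, the stem cell factor receptor on which the sort was made, was at 148 and 123 CPM in members and at 141 and 155 CPM in that gate. Csf3r, the G-CSF receptor, was at 73.5 and 70.8 CPM in members and at 61.0 and 39.6 CPM there. Csf1r, the macrophage receptor, had 6 and 33 UMIs in members. Of the homing and adhesion list, against the CD150-low CD48-low gate, 1 of 15 tested genes (Cd48) was past the fold, with a median log2 ratio of 0.342, and of the ID and E protein list 0 of 4, with a median of 0.178. Notch1, the receptor that starts the T lineage, was at 36.3 and 27.0 CPM in members and at 68.3 and 56.1 CPM in cells with Dntt.

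The members varied among themselves. After thinning, Satb1 without Mpo was found in 38.72% and 23.9% of members, Mpo without Satb1 in 12.34% and 20.75%, both in 8.09% and 18.55%, and neither in 40.85% and 36.79%. In the CD150-high CD48-low gate neither was found in 92.31% and 96.42% of cells. Satb1 was spread thinly, with a median of 1 UMI and 19.54% and 16.74% of its UMIs in the 10 highest members. Mpo was concentrated, as 26.42% and 45.96% of members carried it and the 10 highest held 59.94% and 49.74% of its UMIs. Ctsg was found in 11 and 91 members, and Elane in 4 and 19. Myeloid granule transcripts thus came from a minority of members, a smaller one in suffix 1, and a summed level of Mpo does not describe the median member, which had 0 UMIs.

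A few members carried another programme. In 7 of them, 1 of suffix 1 and 6 of suffix 2, genes of MHC class II, which present antigen to T cells, made up 2.33% to 5.92% of UMIs, while the highest of the other 561 had 1.01%. Only 9 such cells were found among all kept cells. Clec9a, a receptor of cross-presenting dendritic cells, was present in all 7 and in 2 of the others, the chemokine receptor gene Xcr1 in 6 and in 1, and the factor Batf3 in 6 and in 0. Cd34 was found in 2 of the 7, with 4 UMIs, and in 560 of the 561 others. Of the genes of the sort, Kit was found in 4 of the 7, with 7 UMIs, and in 492 of the others. Ly6a, which encodes Sca-1, was found in 6 of the 7 and in 524 of the others. By their dendritic cell genes and low Cd34, these 7 cells met the rule but not the description of a multipotent progenitor. They were set apart after their values had been seen.

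The 7 cells bear on every level of MHC class II. With them the list was at 766.4 and 2171.7 CPM in members, and without them at 650.1 (626.1 to 674.9) and 1268.2 (1240.3 to 1296.5) CPM, against 716.6 and 1448.0 CPM in Flt3-negative cells. The list median against the Flt3-negative cells went from 0.364 to 0.088, and against the CD150-low CD48-low gate from 0.0655 to -0.31. Irf8, a factor of dendritic cells and monocytes, went from 96.9 to 46.6 CPM in suffix 2, and Id2, an inhibitor of E proteins, from 51.4 to 6.29 CPM. Gene counts hardly moved, with 78 genes higher and 6 lower than in the CD150-low CD48-low gate.

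**Figure D5:**
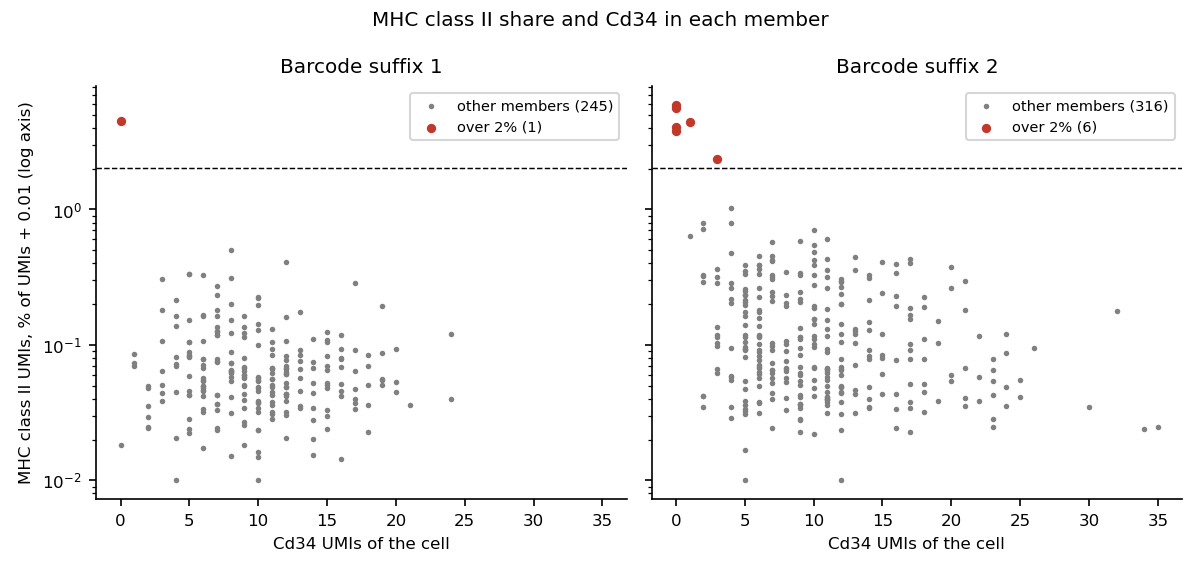
Share of UMIs from MHC class II genes, in % with 0.01 added on a log axis (vertical), against Cd34 UMIs (horizontal) in each member, with one panel for each barcode suffix. Red points are the 1 and 6 members over 2% (dashed line), which lie at 0 to 3 Cd34 UMIs, and grey points are the others, none of which is above 1.01%.

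The CLCA3A1 tag, read through the PE dye, was not part of the rule. Members had a median of 10 tags in suffix 1 (8 to 12) and 10 in suffix 2 (9 to 12). In the CD150-high CD48-low gate the medians were 25 and 214, in the Flt3-negative cells 9 and 30, and in the cells with Flt3 and Dntt 5 and 6. In the CD150-low CD48-low gate they were 5 (4 to 6) and 43 (34 to 50), below the members in suffix 1 and above them in suffix 2. Tags that mapped to no antibody had medians of 40 and 24 in members. Clca3a1 mRNA, which encodes an accessory protein of calcium-activated chloride channels, had 2 and 12 UMIs in members (0.471 and 1.89 CPM), against 7.10 and 92.3 CPM in the CD150-high CD48-low gate.

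Markers of mature cells were compared as summed levels. The listed mast cell and basophil genes were at 2.35 and 19.2 CPM in members and at 40.1 and 42.1 CPM in Flt3-negative cells, and the red cell genes at 43.3 and 40.2 CPM against 18.5 and 32.5 CPM, and at 75.6 and 210.8 CPM in the CD150-low CD48-low gate. The stroma and endothelium list was at 54.4 and 52.6 CPM against 54.8 and 58.5 CPM. The mature neutrophil and monocyte list was at 228 and 287 CPM against 298 and 279 CPM, with S100a8 at 16 and 26 UMIs in members. The dendritic cell list was at 383 and 405 CPM against 337 and 362 CPM, and the mature B and plasma cell list at 53.5 and 105 CPM in members. The T and NK cell list, at 119 and 221 CPM in members, 198 and 148 CPM in Flt3-negative cells and 45.5 and 39.9 CPM in the CD150-low CD48-low gate, came in members almost wholly from Nkg7, and Cd3e was at 0.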

How the data were processed

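Per the labels and the study's methods, the authors made the UMI counts per gene and cell with Cell Ranger 3.1.0 (genome build mm10, GRCm38, in the submitters' processing notes) and joined both libraries with its aggregation step, named in the methods as a normalization but without its mode, so depths are those after it. For the tags, the authors ran CITE-seq-Count and gave log10 values. 10 to the power of each of the 18330 finite values was whole within 1e-06, and a cell without a finite value was placed lowest.

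Counts were summed over the cells of a group within each suffix, in Python 3.11.15 with numpy 2.4.6, scipy 1.17.1 and pandas 2.3.3, and doublets were called with scanpy 1.11.5. Log2 ratios used CPM with 10 added, among genes detected in 10% of the cells of either group. Intervals are exact, Poisson for levels, conditional binomial for ratios, Clopper-Pearson for shares. The step was tested on simulated data, where 100 of 100 genes raised 4-fold and 100 of 100 lowered 4-fold were recovered among 9573, with 0 others called, for members against the CD150-low CD48-low gate. The changed genes were drawn from the better expressed ones, and counts were Poisson draws from a shared pooled profile. The simulation therefore does not cover low genes, ratios near 2-fold or genes concentrated in few cells.

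Genes named are the highest and lowest past the fold in both suffixes (10 each, or 5 each within the tag gate), the genes of the 19 lists, and the rule's genes. Members and lists were chosen with earlier results of these data known. The comparison with Dntt-carrying cells and the settings without immunoglobulin-rich or MHC class II-rich cells were added after the data had been seen. Alternatives covered the Flt3, Dntt, tag and cell limits, thinning, doublets, cycling cells, pseudocount, filter and summing. Old and young cells were not compared, because the sources used here do not pair suffix and age. Some listed genes are not reported here.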

Additional observations from a re-analysis of the deposited data

How the results depend on the processing

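No paired analysis was possible because the 2 libraries share no replicate and no result comes from a test. Of 129 recomputed counts and shares 84 stayed within their tolerance and 45 moved, of 560 ratios of named genes 380 stayed, 177 moved and 3 reversed, and of 413 list medians 317 stayed and 96 moved. Unless the setting itself shows it, the cause was not tested. The share of members, 14.25%, was 22.4% with 1 or more Flt3 UMIs, 9.13% with 3 or more, 10.58% in thinned cells with the rule applied to the thinned counts, 12.99% without cells high in G2 and mitosis genes, 36.83% with no condition on Dntt, 16.28% with percentiles over both suffixes and 8.08% with tag limits at the medians. Against the CD150-low CD48-low gate the 77 higher genes became 184 with both suffixes summed, 32 in thinned cells, 5 without cells high in G2 and mitosis genes, 49 by the mean of per-cell CPM, 168 with no Dntt condition, 215 with 1 CPM added and 8 with limits at the medians. The 6 lower genes became 11 with 3 or more Flt3 UMIs, 77 summed, 40 with no Dntt condition, 29 with common percentiles, 55 with 1 CPM added and 3 at the medians. Against all other cells the 0 higher genes became 1 summed and 25 with no Dntt condition, and the 4 lower genes 2 with 1 or more Flt3 UMIs, 32 summed, 2 without immunoglobulin-rich cells, 7 in thinned cells, 44 with no Dntt condition, 7 without the detection filter and 22 with 1 CPM added. Against Flt3-negative cells the 4 higher genes became 2 with 1 or more Flt3 UMIs, 9 summed, 16 with no Dntt condition and 11 with 1 CPM added, and the 4 lower genes 23 summed, 2 without immunoglobulin-rich cells, 16 with no Dntt condition, 9 without the filter, 25 with 1 CPM added and 7 at the medians, a setting that put the median of all genes at 0.21. Against the cells with Dntt the 5 higher genes became 12 with 1 or more Flt3 UMIs, 10 summed, 14 in thinned cells, 8 without doublet calls and 44 with 1 CPM added, and the 9 lower genes 27 with 1 CPM added, while dropping the Dntt condition gave no value there. Signs reversed for Birc5 against the CD150-low CD48-low gate without cells high in G2 and mitosis genes (-0.035), for Dntt against other cells with no Dntt condition (4.01) and for Ighm against Flt3-negative cells without immunoglobulin-rich cells (1.21). Birc5 belongs to the list that picked the cells left out. Depth limits the low genes, since 3 UMIs over all members of a suffix are 0.706 or 0.473 CPM.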

Other observations

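With genes picked after their values were seen, the members of both libraries were set side by side as values, with no age attached to either. Of 9468 genes detected in at least 10% of the members of a suffix, 19 were 2-fold higher in suffix 2 and 11 in suffix 1, on the scale of CPM with 10 added. In suffix 2, Ctsg was at 327 CPM against 15.1, Mpo at 515 against 77.0, and Plscr2, a phospholipid scramblase gene, at 29.2 against 3.06. Cst7, cystatin F, an inhibitor of granule proteases, was at 37.2 CPM against 6.12 and the metallothionein gene Mt1 at 35.9 against 6.83. In suffix 1, Hlf was at 545 CPM against 199, and Thbs1, the matrix glycoprotein thrombospondin, at 28.7 against 1.58. Myl10, a myosin light chain gene, was at 921 against 377 CPM, and Gas6, the ligand of the TAM receptors, at 21.4 against 4.41. Without the 7 members rich in MHC class II transcripts, 16 genes were higher in suffix 2 and 12 in suffix 1, and Id2, Cst3 and Hspa1b were no longer among them while Klf4 was added in suffix 1. The tag limits of the libraries differed, so the gates are not the same cells by tag count, and library and age cannot be told apart here.

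Just under the fold, the immediate early genes Fosb and Egr1 were at 230 and 139 CPM in the members of suffix 1 and at 111 and 66.8 CPM in suffix 2. Ltb, which encodes lymphotoxin beta, was at 201 and 98.2 CPM.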
